A study of Mus musculus with 8 samples.

Results

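The coagulation and fibrinolysis genes described here are 32 genes for the clotting factors, their inhibitors, the enzymes that dissolve clots and the vitamin K cycle, listed by symbol and looked up by that symbol among the 54838 genes of each count file. All 32 were found, each under 1 gene ID, and all 32 passed the filter on low counts. Clotting is a chain of proteases, made mostly by hepatocytes, that ends with thrombin cutting fibrinogen into fibrin. Vitamin K is needed to modify several of these proteases before they are secreted, serpins and the protein C system hold them in check, and plasmin dissolves the fibrin. A few members are made mainly outside the hepatocyte, among them factor VIII, von Willebrand factor and thrombomodulin in endothelium.

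RNA of 8 liver pieces from wild-type male C57BL/6J mice was sequenced. At day 15 every mouse was injected intraperitoneally with diethylnitrosamine (DEN), which causes liver tumours, and it was kept on a high-fat diet (HFD) with SW, an abbreviation that the labels do not spell out. The time point was 30 weeks, given both for the diet and for the time since the injection. By their labels 4 of the pieces were tumours and 4 non-tumour tissue, each with a number from 1 to 4, with no untreated liver among them. The labels do not say which pieces came from the same mouse or whether all came from separate mice. The p-values therefore measure only the spread between these samples, which may be technical.

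Libraries held 15446690 to 21977052 counts. Several of them held nearly the same data: the chi-square of their gene counts, per degree of freedom, was 1.58 to 3.28 for tumour 2 with 4 and among non-tumour 2, 3 and 4, against 71.7 to 165 for the other 24 pairs. These libraries were counted as 1 sample, which leaves 5 profiles, 3 from tumours (1, 2/4 and 3) and 2 from non-tumour tissue (1 and 2/3/4). Levels are CPM, the usual scaling of counts to a common library size, on TMM-scaled libraries, given per library, and every mean ± SD, fold change and test uses the profiles. The liver label was borne out by albumin, which took 7.56% to 13.9% of the counts. Tumour 3 stood apart from the other tumours in the liver tumour marker Afp, at 1.46 CPM against 425 to 842 CPM. It lay below the non-tumour libraries too, which held 4.71 to 19.4 CPM. By the chi-square, tumour 3 was nearer to non-tumour 1 (78.1) than to the other tumours (160 to 165). It is named below wherever a result rests on it.

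Tumours were compared with non-tumour liver. For 29 of the 32 members the levels overlapped between the groups. In edgeR's quasi-likelihood test, adjusted by Benjamini-Hochberg over all 13650 genes tested, 0 of the 32 members were called at an adjusted p under 0.05, as were 0 of all genes (0%), and 0 members had an unadjusted p under 0.05, against 451 of all genes (3.30%). DESeq2 on the same profiles called 0 members and 2 genes, with 1 member and 577 genes at an unadjusted p under 0.05. The members' log2 fold changes, tumour over non-tumour, ran from -0.62 to 1.69 with a median of -0.05, beside a median of 0.01 over all genes tested. They were negative for 20 of 32 members and for 47.8% of all genes, and 28 of 32 were smaller than 0.5 in size. Their SEs, between 0.18 and 0.94, were often as large as the fold changes, so that differences of this size were not detectable with 3 against 2 profiles.

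**Figure D1:**
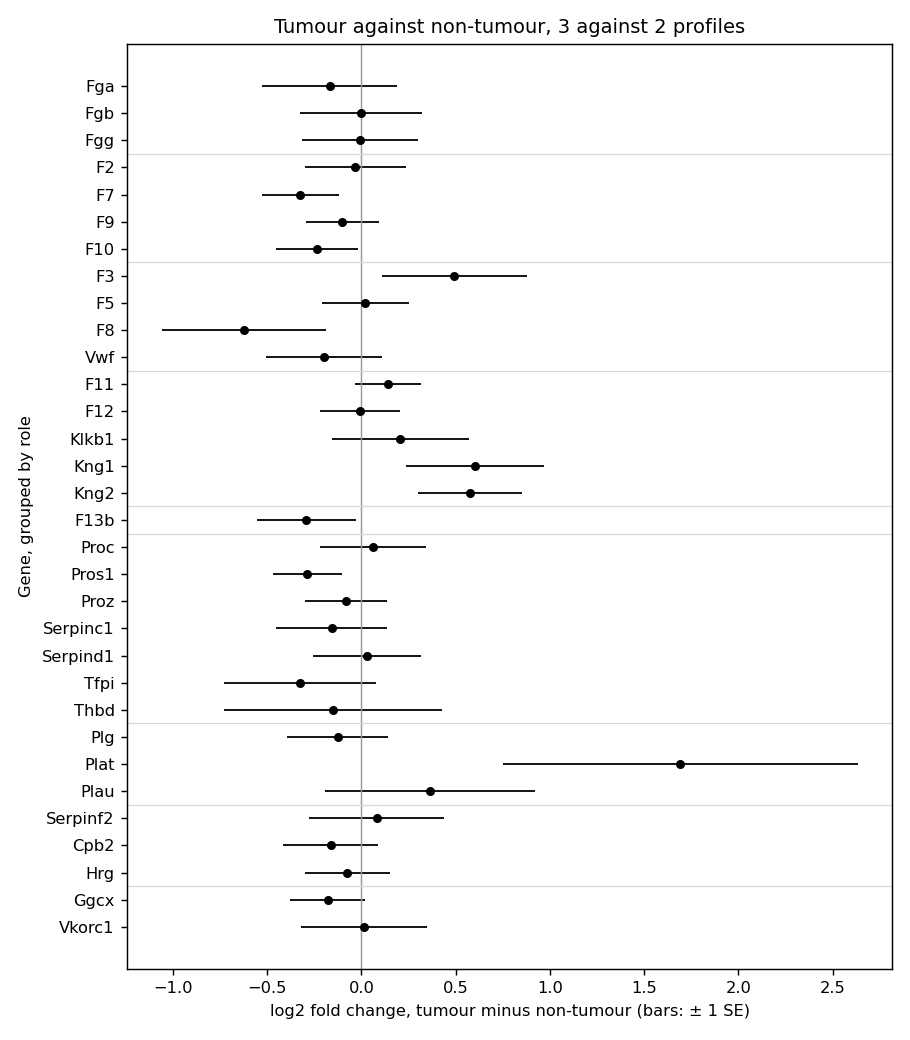
Log2 fold change of each of the 32 genes, tumour minus non-tumour, on the x axis, with genes on the y axis grouped by role; points are edgeR estimates over 3 tumour and 2 non-tumour profiles and bars are ± 1 SE. Most estimates lie within 0.5 of 0, and Plat, at 1.69, has the widest bar (SE 0.94).

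In 2 members, F11 and Kng2, every tumour profile was above both non-tumour profiles, and in 1, F13b, every tumour profile was below both. Among all genes tested these shares were 10% and 8.32%, so the members' counts, 2 and 1 of 32, were not above the background. Scaled on library size alone, 0 members stood on either side, and on DESeq2 size factors 1 stood on each. The spread inside the groups was wide in comparison. In 26 of the 32 members (81.25%) the gap between the 2 non-tumour profiles was larger than the tumour difference, as it was in 62.0% of all genes tested. In 29 of the 32 the range over the tumour profiles was larger than that difference, as it was in 84.1% of all genes.

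Per length, as TPM (counts per exon length, scaled to a common sum), the members differed over a far wider scale than the groups did. They took between 1.16% (tumour 3) and 2.20% (tumour 2) of all TPM, with 1.55% in non-tumour 1 and 1.81% to 1.83% in the other non-tumour libraries. The 3 fibrinogen genes made up 44.8% to 52.4% of the members' TPM. As means over the 5 profiles, Fgg stood at 3554 TPM, Fga at 2981, Fgb at 2228, the kininogen Kng1 at 1609 and Plg at 1098 TPM. The ranges of the fibrinogen genes over profiles overlapped (2292 to 4438, 1529 to 4027 and 1388 to 2847 TPM). Within every library, though, their order in TPM was the same, with Fgg highest and Fgb lowest. In all 20 members averaged over 100 TPM, while 7 averaged under 3 TPM: tissue factor (F3), F8, Tfpi, Thbd, Plau, Plat and, lowest at 0.318 TPM, Vwf. Several of these are known mainly from endothelium. TPM rests on the summed exon length that the files give, which for some genes includes rare transcripts.

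**Figure D2:**
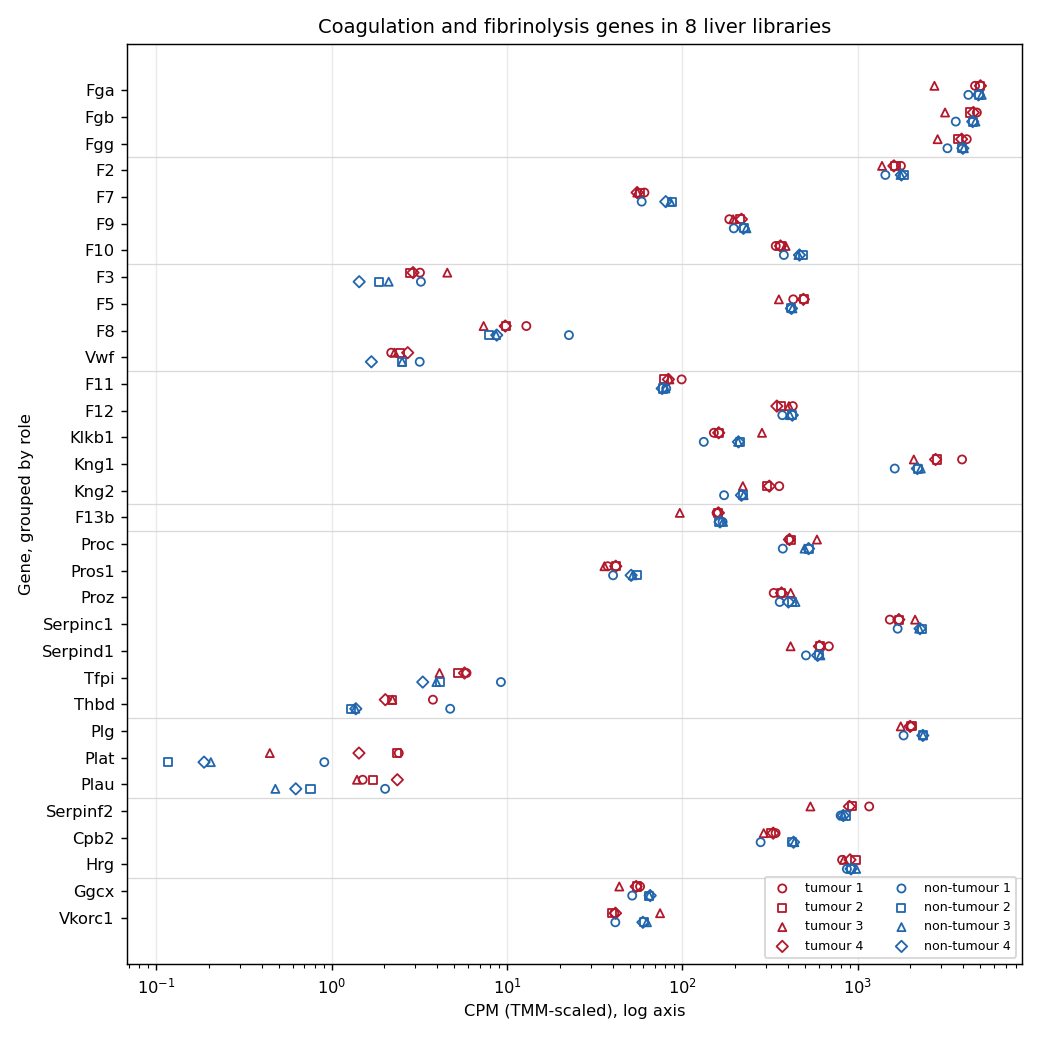
Level of each of the 32 genes in the 8 libraries, in CPM on a log axis, with genes on the y axis grouped by role and separated by grey lines; red symbols are tumours, blue symbols non-tumour pieces, and the symbol shape gives the number. Plat, Thbd, Plau and F8 spread most widely, by 3.07-fold or more between profiles, and Hrg, F12 and F9 least.

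Fibrinogen is the protein that thrombin turns into fibrin, and its alpha, beta and gamma chains are encoded by Fga, Fgb and Fgg, which lie side by side on GRCm38 chromosome 3 (Fgg from 83007724 to 83015049, Fga from 83026076 to 83033627, Fgb on the opposite strand from 83040141 to 83049863). Fga stood at 4669.7, 4977, 2738 and 5009.5 CPM in tumours 1 to 4 and 4276, 4900.5, 5098 and 4883 CPM in non-tumour 1 to 4. Fgb stood at 4780.3, 4371, 3148 and 4565 CPM in tumours 1 to 4 and 3624, 4542, 4695 and 4528 CPM in non-tumour 1 to 4. Fgg stood at 4186, 3742, 2856 and 3913 CPM in tumours 1 to 4 and 3248, 3923, 4032 and 3978 CPM in non-tumour 1 to 4. All 3 chains were lowest in tumour 3 and next lowest in non-tumour 1, and tumours 1, 2 and 4 lay at the level of non-tumour 2, 3 and 4, so the groups overlapped. Fga averaged 4134 ± 1219 CPM in tumours (SD, n = 3) and 4618 ± 484 CPM in non-tumour tissue (SD, n = 2), with a log2 fold change of -0.17 (SE 0.36, edgeR adjusted p = 0.995). Those of Fgb and Fgg were within 0.01 of 0 (SE 0.32 and 0.31). Without tumour 3 they were 0.06, 0.16 and 0.14 for Fga, Fgb and Fgg, so that the sign of each turned. The ratio of Fga to Fgb in TPM was 1.1 in tumour 3 and 1.24 to 1.49 in the other libraries, whereas that of Fgg to Fgb kept between 1.56 and 1.65 in all 8.

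The 3 fibrinogen genes had their lowest level in tumour 3, as had 13 of the 32 members and 30.6% of all genes tested. The sequences before the starts of the 3 genes are shown because these genes are neighbours and are known targets of hepatocyte and acute phase regulators. They come from RefSeq on GRCm38.p6, whose table held a promoter for 25 of the 32 members, and run 5′ to 3′ on the strand of the gene: Fga at chr3:83025903-83026075 on the plus strand, Fgb at chr3:83049864-83050113 on the minus strand and Fgg at chr3:83007474-83007723 on the plus strand. Capitals mark CTGGGA (a core of interleukin 6 response elements), TTGNNCAA (a C/EBP type site) and GTTAAT (a motif known from liver promoters), searched on both strands in the 250 bases before each start. The Fga sequence stops where the gene model of the files begins, 78 bases before the RefSeq start.
Fga: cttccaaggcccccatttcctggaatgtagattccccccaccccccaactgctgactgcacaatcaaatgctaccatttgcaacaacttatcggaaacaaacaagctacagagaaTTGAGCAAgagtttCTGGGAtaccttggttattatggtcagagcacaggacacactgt
Fgb: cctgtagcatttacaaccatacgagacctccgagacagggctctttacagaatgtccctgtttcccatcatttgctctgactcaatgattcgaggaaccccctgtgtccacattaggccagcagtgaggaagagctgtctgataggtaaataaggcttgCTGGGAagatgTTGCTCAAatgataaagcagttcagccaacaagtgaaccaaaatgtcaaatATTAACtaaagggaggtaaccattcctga
Fgg: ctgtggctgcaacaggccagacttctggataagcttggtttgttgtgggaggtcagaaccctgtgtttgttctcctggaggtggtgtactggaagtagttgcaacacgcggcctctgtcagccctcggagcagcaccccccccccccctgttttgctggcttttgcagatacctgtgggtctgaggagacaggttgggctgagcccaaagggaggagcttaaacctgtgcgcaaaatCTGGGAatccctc
Counted from -1 at the last base before the start, CTGGGA begins at -121 in Fga, -91 in Fgb and -13 in Fgg, and TTGNNCAA at -135 in Fga and -80 in Fgb. GTTAAT, on the opposite strand, occupies bases from -43 in Fga (past the printed part) and from -29 in Fgb. No 2 of these matches overlap. CTGGGA was found in 27.0% of the 32851 promoters of the table and in 9 of the 25 matched members, TTGNNCAA in 5.65% and 7 of 25, and GTTAAT in 6.43% and 4 of 25. The percentages count promoters, whereas a member was counted if any of its promoters matched. The units thus differ, which can favour the members. A match describes the letters only and is no evidence of binding.

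Thrombin (F2) and factors VII, IX and X are the procoagulant proteases that need vitamin K. F2, the enzyme that cuts fibrinogen, stood at 1764, 1643, 1376 and 1608 CPM in tumours 1 to 4 and 1438, 1829, 1755 and 1774 CPM in non-tumour 1 to 4. Its levels overlapped (log2 fold change -0.03, SE 0.27, edgeR adjusted p = 0.999), though tumour 3 lay below every non-tumour library and non-tumour 2 and 4 above every tumour. Without tumour 3 the log2 fold change of F2 turned to 0.06. F7, which starts clotting with tissue factor, was at 60.8, 57.6, 55.3 and 55.2 CPM in the tumours, 58.6 CPM in non-tumour 1 and 86.9, 85.4 and 80.4 CPM in non-tumour 2, 3 and 4. Non-tumour 1 thus lay inside the tumour range, and the difference in means came from the other non-tumour profile (log2 fold change -0.32, SE 0.20, edgeR adjusted p = 0.995). For F10, where the pathways meet, non-tumour 1 lay inside the tumour range as well (341, 363, 388 and 362 CPM in tumours, 379 CPM in non-tumour 1 and 488, 459 and 465 CPM in the others), and the log2 fold change was -0.24 (SE 0.22). F9, the protease missing in haemophilia B, stood at 185, 212, 195 and 217 CPM in the tumours and 196, 225, 232 and 223 CPM in non-tumour tissue. It varied least of the 4, by 1.22-fold between its lowest and highest profile, with a log2 fold change of -0.10 (SE 0.19). All 4 of these log2 fold changes were negative, and in all 4 genes the groups overlapped. Without non-tumour 2/3/4, those of F2 and F9 turned to 0.14 and 0.01.

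Vitamin K also serves the anticoagulants protein C (Proc), its cofactor protein S (Pros1) and protein Z (Proz). Of these 7 vitamin K dependent members, 6 (all but Proc) had their highest level in non-tumour 2/3/4, a grouping made after the values were seen. Over all 32 members 11 (34.4%) were highest in that profile, beside 16.7% of all genes tested. Pros1 stood at 37.5, 41.9, 35.9 and 41.7 CPM in tumours 1 to 4, 40.3 CPM in non-tumour 1 and 55.2, 52.1 and 51.1 CPM in non-tumour 2, 3 and 4, with a log2 fold change of -0.29 (SE 0.18). Proz, which lies next to F10 and F7 on chromosome 8, ranged from 332 to 415 CPM in the tumours and from 359 to 442 CPM in non-tumour tissue, with a log2 fold change of -0.08 (SE 0.22). Proc was highest in tumour 3, at 586 CPM against 406 to 418 CPM in the other tumours and 374 to 527 CPM in non-tumour tissue. The vitamin K cycle itself needs the carboxylase Ggcx and the reductase Vkorc1. Ggcx ranged from 43.7 to 57.4 CPM in the tumours and from 51.8 to 65.5 CPM in non-tumour tissue. It had a log2 fold change of -0.18 (SE 0.20) and Vkorc1 of 0.01 (SE 0.34). Vkorc1 was highest in tumour 3 too, at 74.6 CPM, and stood at 39.8 to 41.5 CPM in the other tumours, with 41.5 CPM in non-tumour 1 and 60.1, 62.8 and 59.5 CPM in non-tumour 2, 3 and 4. Without tumour 3 the sign of both turned, to -0.13 for Proc and -0.34 for Vkorc1.

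The contact system, which can start clotting on charged surfaces and releases bradykinin, held both members that were higher in every tumour profile. Kng1 and Kng2 encode kininogens, the precursors of bradykinin, and lie beside Hrg on GRCm38 chromosome 16 (Kng2 from 22985854 to 23029482, Kng1 from 23057865 to 23082078). Kng1 stood at 3936, 2824, 2089 and 2780.3 CPM in tumours 1 to 4 and 1626, 2198, 2290.1 and 2189 CPM in non-tumour 1 to 4. Tumour 3 lay below non-tumour 2, 3 and 4, so the groups overlapped, and the other tumours lay above all non-tumour libraries. Kng1 averaged 2942 ± 932 CPM in tumours (SD, n = 3) and 1926 ± 424 CPM in non-tumour tissue (SD, n = 2), with a log2 fold change of 0.60 (SE 0.37, edgeR adjusted p = 0.995). Kng2, a less abundant gene, stood at 357, 302, 221 and 313 CPM in tumours 1 to 4 and 173, 220.5, 224 and 217 CPM in non-tumour 1 to 4. Every tumour profile was above both non-tumour profiles, but library by library tumour 3 lay below non-tumour 3. Kng2 averaged 295 ± 68.6 CPM in tumours (SD, n = 3) and 197 ± 33.6 CPM in non-tumour tissue (SD, n = 2), with a log2 fold change of 0.58 (SE 0.28, edgeR adjusted p = 0.995), and its unadjusted p, 0.0783, was the lowest of the members. The 2 genes are close copies and reads that mapped to several places were not counted, so the split of reads between them is uncertain. Their ratio in TPM, Kng2 to Kng1, kept between 0.108 and 0.134.

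F11, the protease that activates factor IX, stood at 99.1, 78.8, 84.4 and 83.2 CPM in tumours 1 to 4 and 80.9, 77.6, 80.0 and 76.7 CPM in non-tumour 1 to 4. Its tumour and non-tumour profiles did not overlap, with 81.0 CPM in tumour 2/4 just above 80.9 CPM in non-tumour 1, but tumour 2, inside the profile with tumour 4, lay below non-tumour 1 and 3. The difference was small, with a log2 fold change of 0.14 (SE 0.18, edgeR adjusted p = 0.995). F12, the protease that starts the contact pathway, ranged from 346 to 426 CPM in the tumours and from 372 to 424 CPM in non-tumour tissue and had a log2 fold change of -0.01 (SE 0.21). Klkb1, prekallikrein and the neighbour of F11, was highest in tumour 3, at 284 CPM against 151 to 163 CPM in the other tumours, 132 CPM in non-tumour 1 and 214, 208 and 209 CPM in non-tumour 2, 3 and 4. The 2 neighbours thus had different orders over the libraries. The log2 fold change of Klkb1, 0.21 (SE 0.36), turned to -0.14 without tumour 3.

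F13b, the carrier subunit of factor XIII that crosslinks fibrin, was the 1 member lower in every tumour profile. It stood at 157, 159, 96.7 and 160.5 CPM in tumours 1 to 4 and 169.7, 162, 171 and 164 CPM in non-tumour 1 to 4. Tumour 3 alone was far below the rest, while tumours 2 and 4 lay within a few CPM of non-tumour 2 and 4. F13b averaged 138 ± 35.6 CPM in tumours (SD, n = 3) and 168 ± 2.84 CPM in non-tumour tissue (SD, n = 2), with a log2 fold change of -0.29 (SE 0.26, edgeR adjusted p = 0.995). Without tumour 3 the log2 fold change was -0.09.

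Among the inhibitors, antithrombin (Serpinc1), the main serpin against thrombin and factor Xa, stood at 1524, 1717, 2124 and 1716 CPM in tumours 1 to 4 and 1689, 2314, 2242 and 2266 CPM in non-tumour 1 to 4. Tumour 3 and non-tumour 2, 3 and 4 were high, and tumour 1 was lowest. Serpinc1 averaged 1788 ± 306 CPM in tumours (SD, n = 3) and 1982 ± 414 CPM in non-tumour tissue (SD, n = 2), with a log2 fold change of -0.16 (SE 0.29, edgeR adjusted p = 0.995). Heparin cofactor II (Serpind1), a second thrombin inhibitor, had the opposite order within the tumours, with 685, 609.5, 414 and 604 CPM in tumours 1 to 4 and 507, 599, 613 and 591 CPM in non-tumour 1 to 4, and a log2 fold change of 0.03 (SE 0.29). Of the 7 anticoagulant members, Proc, Pros1, Proz, Serpinc1, Serpind1, Tfpi and Thbd, 5 had a negative and 2 a positive log2 fold change, and in all 7 the groups overlapped.

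Fibrin is dissolved by plasmin, made from plasminogen (Plg) by the activators tPA (Plat) and urokinase (Plau). Plg stood at 2025, 2026, 1759.8 and 1989.5 CPM in tumours 1 to 4 and 1826, 2362, 2358 and 2352 CPM in non-tumour 1 to 4. Tumour 3 and non-tumour 1 were lowest and non-tumour 2, 3 and 4 highest, so the groups overlapped. Plg averaged 1931 ± 148 CPM in tumours (SD, n = 3) and 2092 ± 375 CPM in non-tumour tissue (SD, n = 2), with a log2 fold change of -0.13 (SE 0.27, edgeR adjusted p = 0.995). Plat had the largest fold change of the members and was scarce, with 53, 48, 7 and 29 counts in tumours 1 to 4 and 18, 2, 3 and 3 counts in non-tumour 1 to 4. As CPM these were 2.41, 2.36, 0.444 and 1.43 in the tumours and 0.908, 0.117, 0.205 and 0.187 in non-tumour tissue. Tumour 3 lay below non-tumour 1, and the other tumour libraries (1, 2 and 4) lay above every non-tumour library. Plat averaged 1.58 ± 1.02 CPM in tumours (SD, n = 3) and 0.539 ± 0.522 CPM in non-tumour tissue (SD, n = 2), with a log2 fold change of 1.69 (SE 0.94, edgeR adjusted p = 0.995), with an unadjusted p of 0.119. The log2 fold change was 3.22 without non-tumour 1 and 0.82 without non-tumour 2/3/4. Plau, also scarce, stood at 1.5, 1.72, 1.39 and 2.37 CPM in the tumours and 2.02, 0.758, 0.478 and 0.624 CPM in non-tumour tissue, with non-tumour 1 inside the tumour range and a log2 fold change of 0.37 (SE 0.56).

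The inhibitors of fibrinolysis overlapped between the groups as well. Alpha 2-antiplasmin (Serpinf2), which blocks plasmin, stood at 1163, 929, 537 and 897 CPM in tumours 1 to 4 and 799, 858, 824 and 827 CPM in non-tumour 1 to 4. Tumour 1 was highest and tumour 3 lowest, with the non-tumour libraries between them (log2 fold change 0.08, SE 0.36, edgeR adjusted p = 0.997). Cpb2, the carboxypeptidase TAFI that trims plasminogen binding sites from fibrin, stood at 340.4, 319, 291 and 329.6 CPM in the tumours, 279 CPM in non-tumour 1 and 421, 435 and 431 CPM in the other non-tumour libraries, with a log2 fold change of -0.16 (SE 0.25). Hrg, a plasma protein that binds plasminogen and heparin, was the steadiest member over the profiles. It ranged from 815 to 971 CPM in the tumours and from 867 to 980.3 CPM in non-tumour tissue, with a 1.15-fold span over the profiles and a log2 fold change of -0.07 (SE 0.23).

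Factor V (F5) and factor VIII (F8) are the cofactors of the proteases, tissue factor (F3) starts clotting and von Willebrand factor (Vwf) carries factor VIII. F5, made by hepatocytes, stood at 429, 496, 355 and 490.1 CPM in tumours 1 to 4 and 414, 417, 424 and 419 CPM in non-tumour 1 to 4, with a log2 fold change of 0.02 (SE 0.23). F8 stood at 12.9, 9.82, 7.35 and 9.77 CPM in tumours 1 to 4 and 22.6, 7.87, 8.66 and 8.74 CPM in non-tumour 1 to 4. Non-tumour 1 was far higher than any other library and non-tumour 2, 3 and 4 were among the lowest, so that tumours 1, 2 and 4 lay between the non-tumour profiles and tumour 3 just below both (log2 fold change -0.62, SE 0.44, edgeR adjusted p = 0.995). F3 was at 3.19, 2.80, 4.56 and 2.91 CPM in the tumours and 3.23, 1.86, 2.11 and 1.44 CPM in non-tumour tissue, with non-tumour 1 among the tumours, and its log2 fold change was 0.49 (SE 0.38). Vwf stood at 2.19, 2.45, 2.28 and 2.71 CPM in the tumours and 3.18, 2.51, 2.52 and 1.69 CPM in non-tumour tissue, with a log2 fold change of -0.20 (SE 0.31).

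F8, Vwf, Tfpi and Thbd, all known from endothelium, were set beside endothelial markers. Plat, which endothelium makes too, was instead highest in tumour 1. Tfpi, the inhibitor of tissue factor, stood at 5.88, 5.25, 4.12 and 5.72 CPM in the tumours and 9.23, 4.14, 3.96 and 3.31 CPM in non-tumour tissue. Thbd, the thrombomodulin that turns thrombin towards protein C, stood at 3.78, 2.21, 2.22 and 2.02 CPM and 4.74, 1.28, 1.36 and 1.37 CPM. F8, Vwf, Tfpi and Thbd were each highest in non-tumour 1, the library with the highest sums of endothelial markers, and Tfpi and Thbd were lowest in the profile of non-tumour 2, 3 and 4. The summed CPM of 7 sinusoidal endothelium markers was 204, 193, 171 and 186 in tumours 1 to 4 and 304, 152, 149 and 156 in non-tumour 1 to 4. That of 7 general endothelium markers was 113, 96.2, 77.1 and 98.3 and 173, 74.4, 74.6 and 73.8. Set against the sinusoidal sum, F8 amounted to 4.30% (tumour 3) to 7.41% (non-tumour 1), a narrower span than that of its CPM. Tfpi amounted to 2.12% (non-tumour 4) to 3.07% (tumour 4). Thbd amounted to 0.841% (non-tumour 2) to 1.85% (tumour 1), with 1.56% in non-tumour 1. In bulk tissue, fewer cells of a type and less RNA per cell cannot be told apart, and the part of cell makeup in these values was not tested. Without non-tumour 1 the log2 fold changes of F8, Vwf, Tfpi and Thbd turned from -0.62, -0.20, -0.33 and -0.15 to 0.24, 0.06, 0.42 and 0.99.

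**Figure D3:**
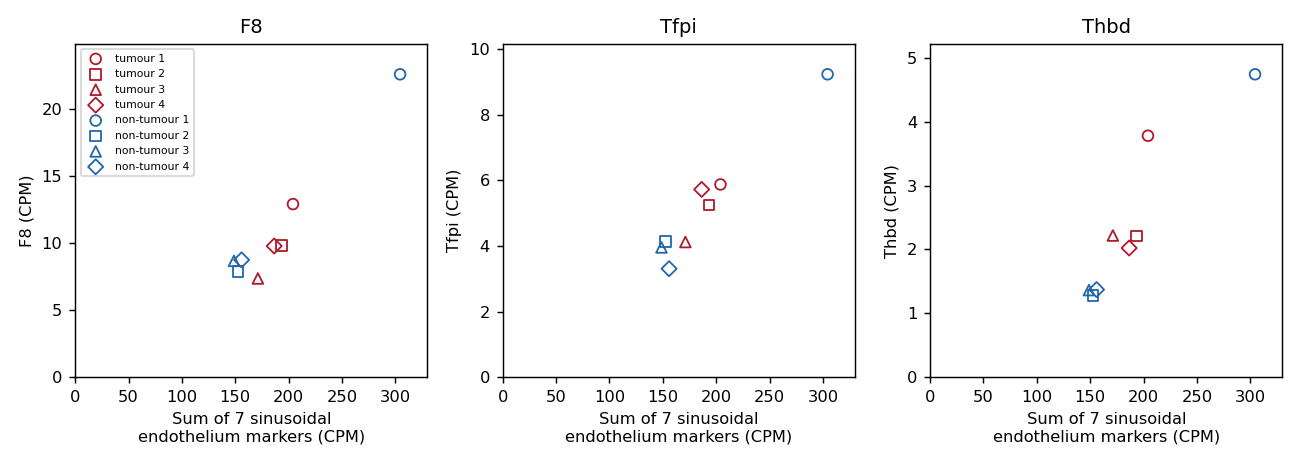
CPM of F8, Tfpi and Thbd (y axes, each panel on its own scale from 0) against the summed CPM of 7 sinusoidal endothelium markers (x axes) in the 8 libraries; red symbols are tumours, blue symbols non-tumour pieces, and the shape gives the number. Non-tumour 1 lies at the upper right of each panel, with the highest marker sum (304 CPM) and the highest level of each gene.

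Other cell markers differed between the profiles too, with 0 genes called in any list. Non-tumour 1 had the highest sums of 6 Kupffer cell markers, at 484 CPM against 146 to 188 CPM in the tumour profiles and 156 CPM in non-tumour 2/3/4. Its sum of 8 monocyte and macrophage markers was the highest too (274 CPM, against 54.6 to 134 CPM in tumours and 74.1 CPM in the other profile). Most of that sum was Lyz2 and Adgre1, at 193 and 61.5 CPM in non-tumour 1. Not every one of these markers was highest there: Gpnmb was at 0.504 CPM in non-tumour 1 and 1.99 CPM in tumour 2/4. Megakaryocytes make Vwf too, and platelet and megakaryocyte markers summed to 4.05 to 5.26 CPM in the tumour profiles and 3.94 to 6.41 CPM in the non-tumour profiles, with Gp1bb at 0 in every library. Cholangiocyte markers summed to 22.6 to 405 CPM in the tumour profiles and 35 to 36.6 CPM in the non-tumour profiles. Most of that was Spp1 and Tspan8, at 205.5 and 190 CPM in tumour 1 and 19.4 and 0.254 CPM in tumour 3. Of the 5 that passed the filter, 1 was higher in every tumour profile and 4 overlapped between the groups. Stellate cell markers summed to 224 to 258 CPM in the tumour profiles and 221 to 228 CPM in the non-tumour profiles. The 6 hepatocyte markers summed to 112180 to 170420 CPM in the tumour profiles and 93785 to 103620 CPM in the non-tumour profiles, most of it Alb. Of these 6, 2 were higher and 1, Cps1, was lower in every tumour profile, beside 10% and 8.32% of all genes, and 3 overlapped. Large-vessel endothelium markers summed to 36.0 to 38.3 CPM in the tumour profiles and 37.8 to 44.3 CPM in the non-tumour profiles, most of it Plvap. Of the 5 that passed the filter, 1, Selp, was higher in every tumour profile and 4 overlapped. The sums of neutrophil, B cell and T cell markers reached at most 5.15 CPM in any profile. The part of these cells in the members' values was not tested.

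Of the 32 members, 23 (71.9%) were lower in non-tumour 1 than in non-tumour 2/3/4, and 9 were higher, while 50.6% of all genes tested were lower there. The median member stood at -0.12 in non-tumour 1, 0.12 in non-tumour 2/3/4 and -0.20 in tumour 3, as difference in log2(CPM + 0.1) from the mean of the non-tumour profiles. In tumour 1 and tumour 2/4 it was within 0.05 of 0. Tumour 3 held the lowest level of 13 members (40.6%), among them all fibrinogen chains, beside 30.6% of all genes tested. The profiles of 14 members lay within 1.5-fold of each other and those of 22 within 2-fold.

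**Figure D4:**
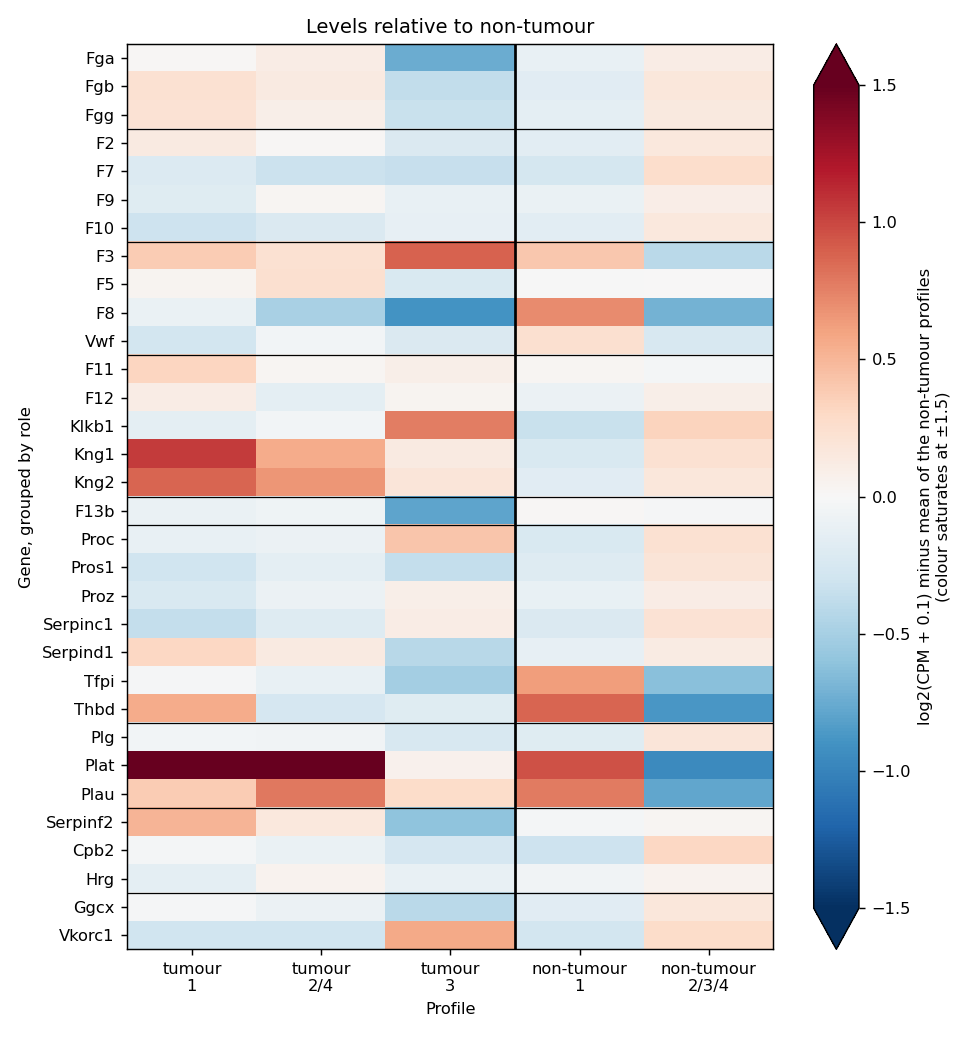
Log2 level of each of the 32 genes (rows, grouped by role) in the 5 profiles (columns), relative to the mean of the 2 non-tumour profiles, as log2(CPM + 0.1), with colour from blue (lower) to red (higher) that saturates at 1.5. The hepatocyte genes are mostly pale, tumour 3 is lower in the fibrinogen genes and higher in Klkb1, Proc and Vkorc1, and Plat is the strongest red in tumours 1 and 2/4.

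Leaving profiles out or splitting them changed which members stood apart. Without tumour 3, 7 members (F5, F11, Kng1, Kng2, Serpind1, Plat and Serpinf2) were higher and 3 (F10, F13b and Vkorc1) lower in every remaining tumour profile, beside 23.2% and 17.4% of all genes. In that fit Kng1 had a log2 fold change of 0.80 (SE 0.32), Kng2 of 0.75 (SE 0.21) and Plat of 2.16 (SE 0.76), with edgeR adjusted p of 0.54, 0.349 and 0.468. Only these 3 members had an unadjusted p under 0.05, beside 9.09% of all genes. Without non-tumour 1, which leaves 1 non-tumour profile, 7 members (F3, F11, Kng2, Tfpi, Thbd, Plat and Plau) were higher and 12 (F2, F7, F9, F10, F13b, Pros1, Proz, Serpinc1, Plg, Cpb2, Hrg and Ggcx) lower in every tumour profile, beside 23.5% and 20.2%. F11 and Kng2 stayed on the higher and F13b on the lower side in each of these 2 fits. This had to be so, since leaving out a profile cannot make separate groups overlap, and it is no further support.

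With all 8 libraries taken as separate samples, which treats near-identical libraries as independent, edgeR called 56 of 12880 genes (0.435%) and 0 members. At an unadjusted p under 0.05 stood 6 members, beside 18.0% of all genes. F7 had a log2 fold change of -0.44, F10 of -0.30 and Pros1 of -0.34, with edgeR adjusted p of 0.138, 0.215 and 0.179. Kng1 had one of 0.49, Kng2 of 0.52 and Plat of 2.16, with edgeR adjusted p of 0.264, 0.154 and 0.158.

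Other genes of the pathway came from a list of 32, of which 28 passed the filter. Of these 0 were called and 5 had an unadjusted p under 0.05, beside 3.30% of all genes. In every tumour profile 6 were higher and 2 lower, beside 10% and 8.32% of all genes, and the median log2 fold change was 0.14. Anxa2, a cell surface receptor for tPA and plasminogen, stood at 94.4, 76.3, 28.5 and 76.8 CPM in tumours 1 to 4 and 32.5, 16.1, 15.2 and 16.5 CPM in non-tumour 1 to 4, with tumour 3 below non-tumour 1 (log2 fold change 1.45, SE 0.56, edgeR adjusted p = 0.995). Hgfac, a protease that thrombin activates, stood at 327, 298, 243 and 278 CPM in tumours 1 to 4 and 199.6, 191, 183 and 187 CPM in non-tumour 1 to 4 (log2 fold change 0.56, SE 0.22, edgeR adjusted p = 0.995). For Hgfac all 3 tumour profiles were above both non-tumour profiles, and every tumour library was above every non-tumour library. A2m, a broad protease inhibitor, was under 1 CPM in every library, with 0.592, 0.736, 0.0634 and 0.691 CPM in tumours 1 to 4 and 0.0504, 0, 0.136 and 0 CPM in non-tumour 1 to 4.

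The transcription factors of hepatocyte clotting genes, a list of 14, had 0 calls and a median log2 fold change of -0.06. Onecut1, a homeobox factor of hepatocytes, had a log2 fold change of -1.36 (SE 0.68, edgeR adjusted p = 0.995). It stood at 8.43, 4.96, 2.66 and 5.08 CPM in tumours 1 to 4. Non-tumour 1 to 4 held 22.9, 4.95, 5.39 and 4.87 CPM. The groups thus overlapped, and non-tumour 1 alone was far above the rest. Acute phase genes and interleukin 6 signalling, a list of 20, had 0 calls and 1 gene with an unadjusted p under 0.05, Il6ra, the interleukin 6 receptor (log2 fold change -0.49, SE 0.18, edgeR adjusted p = 0.995). Of the 20, 4 were lower and 0 higher in every tumour profile, beside 8.32% and 10% of all genes, and the median was -0.35. Saa1, an acute phase apolipoprotein, stood at 33.5, 103, 56.7 and 103 CPM in tumours 1 to 4 and 46.6, 401, 401 and 375 CPM in non-tumour 1 to 4. Non-tumour 1 was inside the tumour range, far below the other non-tumour libraries (log2 fold change -1.78, SE 0.85, edgeR adjusted p = 0.995). In all, 18 of the 20 acute phase and interleukin 6 genes were lower in non-tumour 1 than in non-tumour 2/3/4. So were 23 of the 32 members and 50.6% of all genes tested. Fga, Fgb and Fgg were among these members, with differences of -0.21, -0.34 and -0.29 on the log2 scale. The part of the acute phase in the fibrinogen levels was not tested.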

How the data were processed

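RNA of 8 liver libraries was measured by sequencing of mRNA. The values are whole-number counts per gene that the authors made with featureCounts of Subread 1.6.2 on Ensembl release 95 gene models of GRCm38, with strand setting 2, per the file headers. STAR 2.5.0, an aligner, is named too, per the submitters' processing notes. Reads that mapped to several places were not counted, per the file headers. Nothing in the sources used here describes trimming or read length. Libraries held 15446690 to 21977052 counts. Gene IDs were paired with symbols for 54723 of 54838, and 203 IDs share a symbol with another.

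Libraries of 1 group whose counts gave a chi-square per degree of freedom under 10, over genes with at least 20 reads in the pair, were counted once and their counts summed, which left 3 tumour and 2 non-tumour profiles. The counts were fitted in R 4.3.3 with edgeR 4.0.16 (limma 3.58.1) by the quasi-likelihood test with TMM scaling, after filterByExpr with a minimum count of 10 and total of 15. P-values were adjusted by Benjamini and Hochberg over all tested genes, with a threshold of 0.05. The SE of a log2 fold change is its size over the square root of the F statistic. CPM use TMM-scaled library sizes, and TPM the exon lengths in the files. No batch is named in the labels. The scripts were tested on simulated data.

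The members and the lists of other pathway genes, transcription factors, acute phase genes and cell type markers were chosen with earlier results of these data known. Values in every library are given for fibrinogen, F2, Serpinc1, Plg and for members over 1 CPM that lay on one side or had a log2 fold change of 0.5 or more in size, and of each other list up to 4 genes with the lowest p are named. Values of further members are given as well. Some genes of these lists are not reported here. The marker Tf was not found by its symbol. Alternatives were DESeq2 1.42.0 and its size factors, library size alone, no expression filter, 1 library of each near-identical set, all 8 libraries with and without a replicate block, and each profile left out.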

Additional observations from a re-analysis of the deposited data

How the results depend on the processing

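The number of members called was 0 in the test and in all 12 alternatives, with a lowest edgeR or DESeq2 adjusted p of 0.107, and the cause of the changes below was not tested. Over all genes, 56 were called with 8 separate libraries, 427 without an expression filter and 2 by DESeq2, and 0 to 5 when a profile was left out, with 5 without tumour 3. Members higher in every tumour profile numbered 0 with 8 libraries, 0 with 8 libraries and the replicate block, 0 with library size alone, 1 with 1 library of each set, 1 with DESeq2 size factors and 2 to 7 when a profile was left out. Members lower there numbered 2 with 1 library of each set, 0 with library size alone and 2 to 12 when a profile was left out. Leaving a profile out can only keep or raise these counts. Among all genes the shares higher and lower were 23.2% and 17.4% without tumour 3, beside 10% and 8.32% in the main comparison. The median member log2 fold change ran from -0.15 without non-tumour 1 to 0.076 without non-tumour 2/3/4.

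Replicate numbers that the groups share pair no animals in the labels. Same-numbered libraries correlated at 0.342, -0.154, 0.284 and -0.138 in their deviations from the group means, and tumours 2 and 4 correlated best with non-tumour 1. Non-tumour 2, 3 and 4 are near-identical, as are tumours 2 and 4, so these correlations cannot settle a pairing. For want of a pairing in the labels, the numbers were taken as names only. With the replicate block on 8 libraries, edgeR called 0 genes and 0 members.

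The sign of the log2 fold change turned in 49 of 384 values, in 21 of the 32 members. It turned without non-tumour 1 for F8, Vwf, Klkb1, Proc, Serpind1, Tfpi, Thbd and Vkorc1, and without non-tumour 2/3/4 for Fgb, Fgg, F2, F9, F12, Proz, Serpinc1, Plg, Plau and Cpb2. It also turned without tumour 1 for Serpind1 and Serpinf2, without tumour 2/4 for F5, F12 and Serpind1, and without tumour 3 for Fga, Fgb, Fgg, F2, Klkb1, Proc and Vkorc1. Over the fits that leave out 1 profile each, the log2 fold changes ran as follows: Fga -0.33 to 0.057, Fgb -0.17 to 0.18, Fgg -0.15 to 0.15, F2 -0.19 to 0.14, F9 -0.21 to 0.0088, F5 -0.10 to 0.14, F8 -1.17 to 0.24, Vwf -0.44 to 0.055, F12 -0.10 to 0.086, Klkb1 -0.14 to 0.58, Proc -0.16 to 0.32, Proz -0.20 to 0.043, Serpinc1 -0.37 to 0.078, Serpind1 -0.12 to 0.21, Tfpi -0.84 to 0.42, Thbd -0.82 to 0.99, Plg -0.31 to 0.075, Plau -0.29 to 1.38, Serpinf2 -0.18 to 0.33, Cpb2 -0.45 to 0.18 and Vkorc1 -0.34 to 0.32. For members whose sign did not turn, the same fits gave F7 -0.57 to -0.033, F10 -0.39 to -0.065, Pros1 -0.48 to -0.071, Ggcx -0.34 to -0.00022, F3 0.12 to 0.95 and Plat 0.82 to 3.22, with the ends without one or the other non-tumour profile. They also gave Kng1 0.34 (without tumour 1) to 0.85 and Kng2 0.40 (without non-tumour 1) to 0.77, both upper ends without non-tumour 2/3/4. They gave F11 0.050 (without tumour 1) to 0.19 (without tumour 2/4), F13b -0.42 (without tumour 2/4) to -0.091 (without tumour 3) and Hrg -0.14 (without tumour 2/4) to -0.014 (without non-tumour 2/3/4). With 1 library of each set the log2 fold change turned to 0.00056 for Fgb and 0.0011 for F12. With 8 libraries and the replicate block it was -0.032 for Klkb1, -0.087 for Proc, -0.017 for Serpind1, 0.11 for Tfpi, 0.37 for Thbd and -0.22 for Vkorc1. With 8 libraries and no block it was -0.0074 for Klkb1, -0.082 for Proc, 0.018 for Tfpi, 0.21 for Thbd and -0.19 for Vkorc1. With library size alone it was 0.034 for Fgb, 0.026 for Fgg and 0.0039 for F12. Without an expression filter it was -0.0081 for F5, -0.00070 for Serpind1 and -0.029 for Vkorc1.

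With a left-out non-tumour profile the lone one left is assumed to vary like the tumours. The small counts behind Plat and Plau limit their precision.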
